A study of Homo sapiens with 3 samples.

Results

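The 8 E2F genes E2F1 to E2F8 and the DP genes TFDP1 and TFDP2 were followed through romidepsin treatment of a cytarabine-exposed leukaemia line. The members were taken by gene symbol, and all 10 were found among the 25247 named symbols, each in a single row. RNA was sequenced from OCI-AML2 R50, a culture of the established acute myeloid leukaemia (AML) line OCI-AML2. Romidepsin, an inhibitor of class I histone deacetylases (HDACs), was applied for 18 h in 2 libraries, and 1 library was labelled as control. Cells of both groups were grown in MEMα with 15% FBS and 50 µM Ara-C (cytarabine, a nucleoside analogue that stalls DNA synthesis), so the control is not a drug-free state. The sources used here do not give the dose, a vehicle, or whether the romidepsin libraries came from separate cultures. The p-values therefore reflect the spread of this pair of libraries alone, and that spread may be technical.

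E2F proteins bind promoters of genes that drive entry into and passage through S phase. E2F1, E2F2 and E2F3 activate these genes and are held in check by the retinoblastoma protein RB1, which brings HDACs to the promoter. E2F4 and E2F5 mainly repress them, together with the pocket proteins RBL1 and RBL2 and the MuvB complex. E2F6 lacks the pocket-binding region and works with polycomb proteins, while E2F7 and E2F8 carry a pair of DNA-binding domains and repress without a DP partner. E2F1 to E2F6 bind DNA as a heterodimer with TFDP1 or TFDP2. In a bulk culture, fewer cells in a cell cycle phase and less RNA per cell cannot be told apart.

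The genes of the activators are themselves known E2F targets, and their promoter sequence is shown because the data follow their transcripts. Promoters came from a set of RefSeq starts (GRCh38.p14, a later build than the hg19 named in the submitters' processing notes). In the set at hand, 8 of the 10 members had an entry. E2F5 and E2F8 had none there, so their promoters were not searched. The 250 bases before each start were searched on both strands for the letters TTTCGCG and for the variants with different middle bases, namely TTTGGCG as well as TTTCCCG and finally TTTGCCG, and overlapping matches were counted apart. The last 120 bases before the start are printed 5′ to 3′ on the gene's strand, with the matches in capitals. E2F1 lies on the minus strand at chr20:33686386-33686505, E2F2 on the minus strand at chr1:23531234-23531353, E2F3 on the plus strand at chr6:20401759-20401878 and E2F4 on the plus strand at chr16:67192035-67192154.
E2F1: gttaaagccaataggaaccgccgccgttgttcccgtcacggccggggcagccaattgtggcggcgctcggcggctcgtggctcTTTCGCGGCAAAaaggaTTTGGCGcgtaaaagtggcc
E2F2: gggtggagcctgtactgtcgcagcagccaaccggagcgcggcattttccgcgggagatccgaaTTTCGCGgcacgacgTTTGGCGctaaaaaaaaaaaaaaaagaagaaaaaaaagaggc
E2F3: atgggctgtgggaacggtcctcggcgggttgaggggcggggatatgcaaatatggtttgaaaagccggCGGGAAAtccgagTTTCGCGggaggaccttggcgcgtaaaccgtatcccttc
E2F4: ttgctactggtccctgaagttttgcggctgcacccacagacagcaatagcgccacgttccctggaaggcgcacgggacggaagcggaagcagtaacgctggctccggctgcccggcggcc

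E2F1 held 3 matches, beginning at positions -37, -32 and -20 relative to the start, and the matches at -37 and -32 overlapped. E2F2 held 2 matches, at -57 and -42, and E2F3 held 2, at -52 and -39. Of the other members, E2F6 held 2 matches at -183 and -78 and TFDP1 held 1 at -119, while none of the letter strings was found in the windows of E2F4, E2F7, TFDP2 or the second listed E2F3 start. A match was present in 7.33% of all 35116 promoter windows, and 2 or more in 0.496%. The CCAAT string, a common promoter element, was found 3 times for E2F1, 4 times for E2F3, 4 times for E2F7 and 2 times for TFDP2, each at 1 of the listed starts, against at least 1 match in 32% of windows. These are matches of letters, not measured binding sites.

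Each library was a table of FPKM, a fragment count corrected for the length of the gene and for library size, so levels of different genes can be set side by side. The steps between low values gave an approximate depth of 22200000 and 21600000 fragments for the romidepsin libraries and 18300000 for the control. The 10 myeloid blast markers were all above 1 FPKM, with a sum of 4625 and 4581 FPKM after romidepsin and 7808 FPKM in the control. Both romidepsin values lay below the control for 8 of them, LYZ (lysozyme) included, at 2630 and 2596 FPKM after romidepsin and 4258 FPKM in the control. They lay above it for the transcription factor genes CEBPA, at 265 and 262 against 223 FPKM, and RUNX1, at 48.4 and 47.7 against 33.0 FPKM. Markers of other cell types were low: the summed fibroblast list was 7.61 and 7.33 FPKM after romidepsin and 0.608 FPKM in the control, the lymphoid list 3.18 and 3.29 against 1.06 FPKM, and the erythroid and megakaryocytic list 3.16 and 3.14 against 0.501 FPKM, with HBB and KLF1 at 0. The epithelial sum stayed at or below 0.0764 FPKM. The part of these markers in the results was not tested.

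Differences are given as romidepsin minus control on the log2(FPKM + 1) scale, which understates the change of low genes, and were tested with limma over the 11708 genes with at least 1 FPKM in 1 library. Of the 10 members, 8 fell, E2F7 rose and E2F3 was not called, and the signs of E2F8 and E2F3 turned when the libraries were scaled to the same sum of FPKM (equal-sum scaling). This count has to be read against a comparison in which 76.5% of all tested genes were called at an adjusted p under 0.05, 41.8% lower and 34.7% higher. No member was at least 2-fold away from the control in both libraries on this scale, against 3.08% of tested genes lower and 7.43% higher. The median over the 10 members was -0.37, beside -0.05 over all genes. Since there is 1 control library, an effect of romidepsin and a difference between cultures cannot be told apart. With equal-sum scaling, 5 members were lower and 2 higher, where 75% of tested genes were called, 26.1% lower and 48.9% higher.

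**Figure D1:**
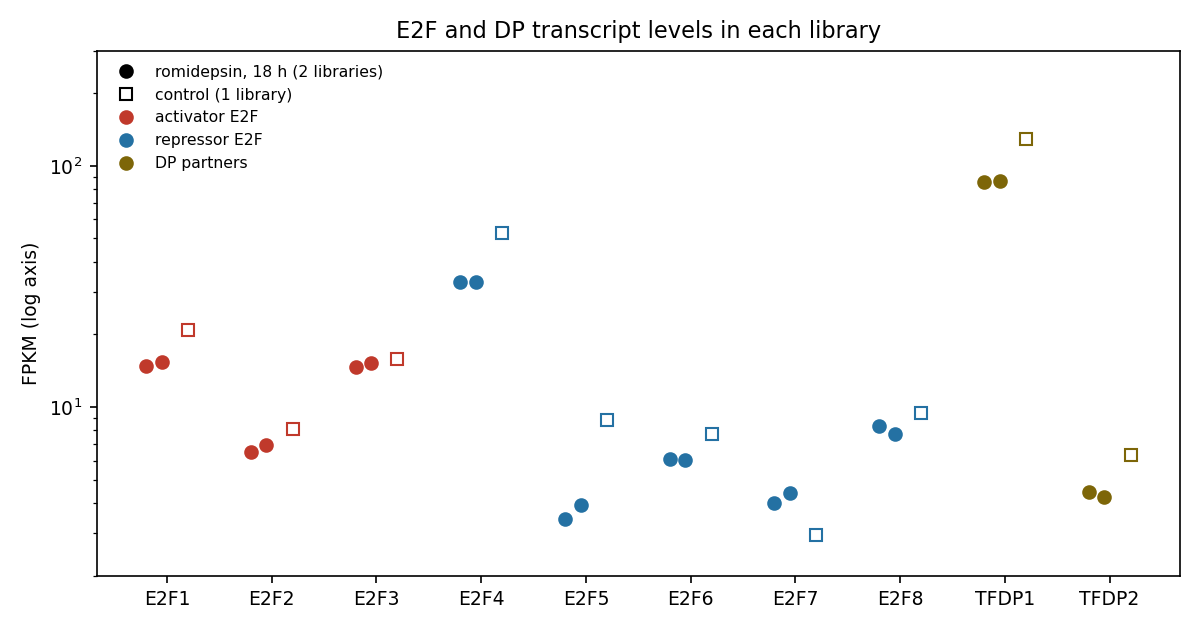
FPKM of the 10 members on a log axis, with filled circles for the 2 romidepsin libraries, an open square to their right for the control, and colours for the 3 classes. The romidepsin libraries lay below the control for every member except E2F7, and the gap was narrowest for E2F3, at 14.7 and 15.2 FPKM after romidepsin against 15.8 FPKM in the control.

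Among the activators, E2F1, which drives S-phase entry and can also induce death genes, showed the largest fall. It was read at 14.8 and 15.3 FPKM after romidepsin and at 20.8 FPKM in the control. Both romidepsin values lay below the control, and the gap was many times that between them (1.38-fold lower, log2 difference -0.44 ± 0.05 SE, adjusted p = 0.000159). E2F2 stood at 6.53 and 6.97 FPKM after romidepsin against 8.11 FPKM in the control. Its fall of 0.23 on the log2 scale (SE 0.07, adjusted p = 0.0171) did not survive equal-sum scaling (log2 difference -0.02, adjusted p = 0.795) or the removal of the filter on low values (adjusted p = 0.096).

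E2F3, which yields a long and a short protein from different starts that gene-level values cannot separate, had 14.7 and 15.2 FPKM after romidepsin and 15.8 FPKM in the control. Its log2 difference was -0.08 ± 0.05 SE (adjusted p = 0.215). Under equal-sum scaling the sign turned and the gene was called higher (0.15 ± 0.05 SE, adjusted p = 0.0448), so no direction is given for it. E2F1 and E2F3 thus stood at nearly the same level after romidepsin, with an E2F1 to E2F3 ratio of 1.01 in both libraries against 1.31 in the control. A ratio of genes within a library does not depend on the library's scaling. The differences of the activators ran from -0.44 to -0.08. Each activator held matches to the searched letters before a listed start, as did E2F6 and TFDP1. Whether these matches bear on the differences was not tested.

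The repressors that work with pocket proteins, E2F4 and E2F5, both fell. E2F4, the most abundant E2F in every library, was at 33.0 and 32.9 FPKM after romidepsin and 52.5 FPKM in the control. The romidepsin libraries were almost equal and well below the control (1.59-fold lower, log2 difference -0.66 ± 0.04 SE, adjusted p = 6.04e-06). E2F5, its close relative, was at 3.44 and 3.93 FPKM after romidepsin and at 8.83 FPKM in the control. This was the largest difference of any member (2.4-fold lower, -1.07 ± 0.09 SE, adjusted p = 2.45e-05), and 2.78% of tested genes ranked at or below it. E2F5 also rests on few fragments, about 84 and 93 after romidepsin and 177 in the control with the shortest annotated transcript, and counting alone then gives an SE of 0.13 on the log2(FPKM + 1) scale, more than the fitted one. With the shortest annotated transcript of each, the counting SE was above the fitted SE for 5 of the 10 members. The excess was little for E2F1 (0.0556 against 0.0514), E2F4 (0.0405 against 0.0403) and E2F6 (0.0737 against 0.0663). It was more for E2F5 and TFDP2. The adjusted p of these 5 may be too small.

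E2F6, the polycomb-linked repressor, was at 6.08 and 6.02 FPKM after romidepsin and 7.71 FPKM in the control. The fall of 0.30 on the log2 scale (SE 0.07, adjusted p = 0.0041) did not survive equal-sum scaling (-0.09, adjusted p = 0.228). The calls of E2F4 and E2F5 held there, at -0.42 (adjusted p = 0.000169) and -0.87 (adjusted p = 0.000271).

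Of the atypical repressors, E2F7 rose and E2F8 fell, each with a call that depends on the processing and, for E2F8, a sign that turned with equal-sum scaling. E2F7 rose to 4.02 and 4.4 FPKM after romidepsin against 2.94 FPKM in the control. Both libraries lay above the control (1.43-fold higher, 0.40 ± 0.09 SE, adjusted p = 0.00422), but quantile normalization removed the call (0.19, adjusted p = 0.119), as did the absence of a filter (adjusted p = 0.0596). E2F8 was at 8.38 and 7.76 FPKM after romidepsin against 9.42 FPKM in the control, a fall of 0.20 (SE 0.07, adjusted p = 0.03). It was not called with equal-sum scaling (0.02, adjusted p = 0.848), with no filter (adjusted p = 0.138) and without the mean-variance trend (adjusted p = 0.053). The E2F7 to E2F8 ratio was 0.479 and 0.567 after romidepsin and 0.312 in the control, while their summed level was 12.4 and 12.2 FPKM after romidepsin and 12.4 FPKM in the control.

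Both DP genes fell. TFDP1, the main dimer partner and the most abundant of the 10, was at 85.4 and 86.2 FPKM after romidepsin and 129 FPKM in the control (1.5-fold lower, -0.58 ± 0.03 SE, adjusted p = 5.32e-06). TFDP2, the second partner, was at 4.46 and 4.24 FPKM after romidepsin and 6.35 FPKM in the control (1.46-fold lower, -0.46 ± 0.08 SE, adjusted p = 0.000994). Counting alone gives an SE of 0.13 for TFDP2 with its shortest annotated transcript, at about 119 and 110 fragments after romidepsin and 140 in the control. With its longest, the fragments would be about 975, 903 and 1148, so that SE depends on the transcript. Their proportion barely moved, with a TFDP1 to TFDP2 ratio of 19.2 and 20.3 after romidepsin and 20.3 in the control. The DP sum was 0.989 and 0.977 times the E2F sum after romidepsin and 1.07 times in the control.

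**Figure D2:**
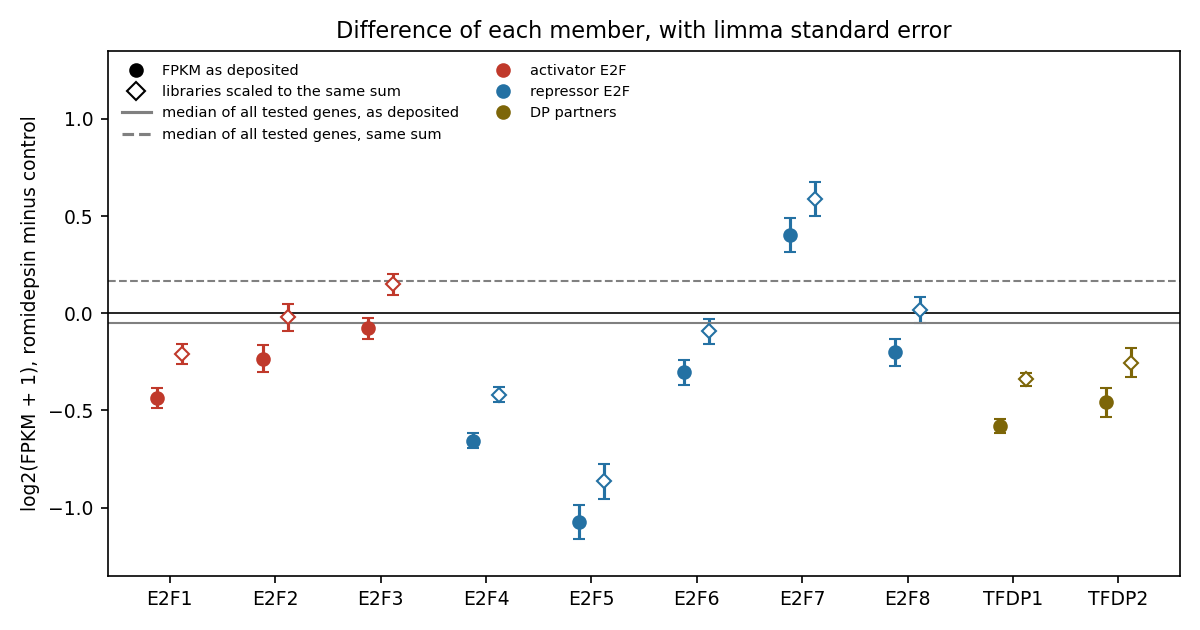
Log2(FPKM + 1) difference of each member, romidepsin minus control, with the limma SE as bars, for FPKM as deposited (filled circles) and for libraries scaled to the same sum (open diamonds); grey lines mark the medians of all tested genes at -0.05 and 0.16. E2F5, E2F4, TFDP1, TFDP2 and E2F1 lie below 0 on both scales, as do E2F6 and E2F2 by less. E2F7 lies above 0 on both, while E2F3 and E2F8 change sign.

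The scaling matters for the size of these differences. Scaling to the same sum moved the median of all genes by 0.21. It multiplies every gene of a library by the same factor, so positions relative to that median are nearly fixed by construction: E2F5 lay at -1.02 as deposited and -1.03 after scaling, E2F4 at -0.60 and -0.58, TFDP1 at -0.53 and -0.50, and E2F7 at 0.45 and 0.42. E2F3 lay at -0.03 and -0.02, that is at the middle of all genes. The difference also went with abundance. The median was 0.19 over the 3083 tested genes with a mean under 5 FPKM, -0.03 over the 4397 genes from 5 to 20 FPKM, -0.14 over the 2388 genes from 20 to 50 FPKM and -0.29 over the 1840 genes at or above 50 FPKM. TFDP1 belongs to the last of these groups and E2F4 to the one before it, and both lay below the median of their own. E2F7, at 0.40, belongs to the group under 5 FPKM, whose median of 0.19 was itself above 0. The other members belong to the group from 5 to 20 FPKM and lay below its median, E2F3 by little. Low genes could enter the test through the romidepsin libraries alone. At least 1 FPKM was reached by 11451 and 11458 symbols after romidepsin and by 10838 in the control. The filter may thus raise the median of the genes under 5 FPKM, which was not tested.

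**Figure D3:**
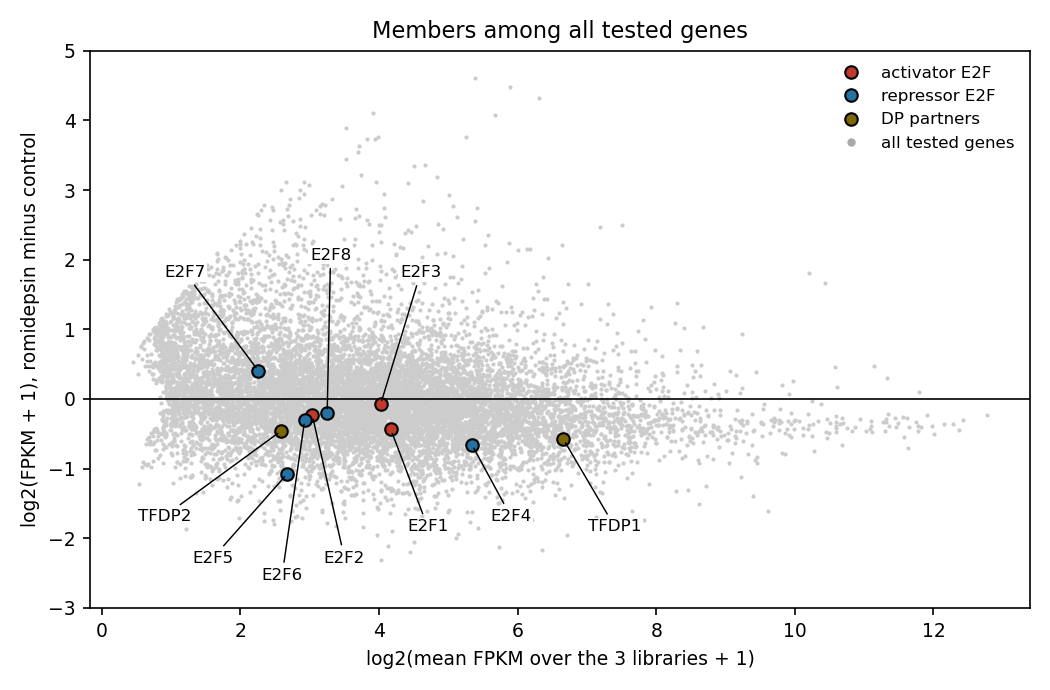
Log2(FPKM + 1) difference, romidepsin minus control, against mean level for all 11708 tested genes (grey) with the 10 members in colour. The grey cloud drifts below 0 towards high levels, where TFDP1 sits at -0.58, and E2F5 at -1.07 is the member nearest the lower edge.

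Set as classes, the summed activator level was 36.0 and 37.6 FPKM after romidepsin and 44.7 FPKM in the control, and it fell by 17.8% on the mean of the pair. The summed repressor level was 54.9 and 55.0 FPKM after romidepsin and 81.4 FPKM in the control, and it fell by 32.4%. The ratio of activator to repressor transcripts was therefore 0.656 and 0.682 after romidepsin and 0.55 in the control, with both romidepsin values above the control. The median log2 difference was -0.23 over the 3 activators (2 lower, none higher) and -0.30 over the 5 repressors (4 lower, 1 higher), and the range of the repressors, from -1.07 to 0.40, contained that of the activators. With equal-sum scaling these medians were -0.02 and -0.09, where the median of all genes was 0.16, so the size of the falls depends on the scaling. Without E2F4, the ratio was 1.64 and 1.70 after romidepsin and 1.55 in the control, again with both romidepsin values above the control. That direction did not hold against every repressor. E2F4 to E2F6 summed to 42.5 and 42.9 FPKM after romidepsin and 69.0 FPKM in the control. E2F7 and E2F8 summed to 12.4 and 12.2 FPKM against 12.4 FPKM. Set over E2F7 and E2F8 alone, or over these with E2F6, the activator sum was lower in both romidepsin libraries than in the control. The higher ratio after romidepsin thus needs E2F4 or E2F5 among the repressors. Members share their libraries and are not replicates, and no test was made between the classes.

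Within the summed E2F pool, E2F4 took 36.3% and 35.6% after romidepsin and 41.6% in the control, and E2F5 took 3.78% and 4.24% against 7.0%. E2F3 took 16.1% and 16.5% after romidepsin and 12.6% in the control, and E2F7 took 4.42% and 4.75% against 2.33%. E2F1 kept its share, at 16.3% and 16.6% after romidepsin and 16.5% in the control. In order of level, TFDP1, E2F4, E2F1, E2F3 and E2F8 led in every library, and E2F1 and E2F3 overlapped between the romidepsin libraries. E2F5 ranked 6th of 10 in the control and 10th in both romidepsin libraries, whereas TFDP2 and E2F7 exchanged places between the romidepsin libraries.

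**Figure D4:**
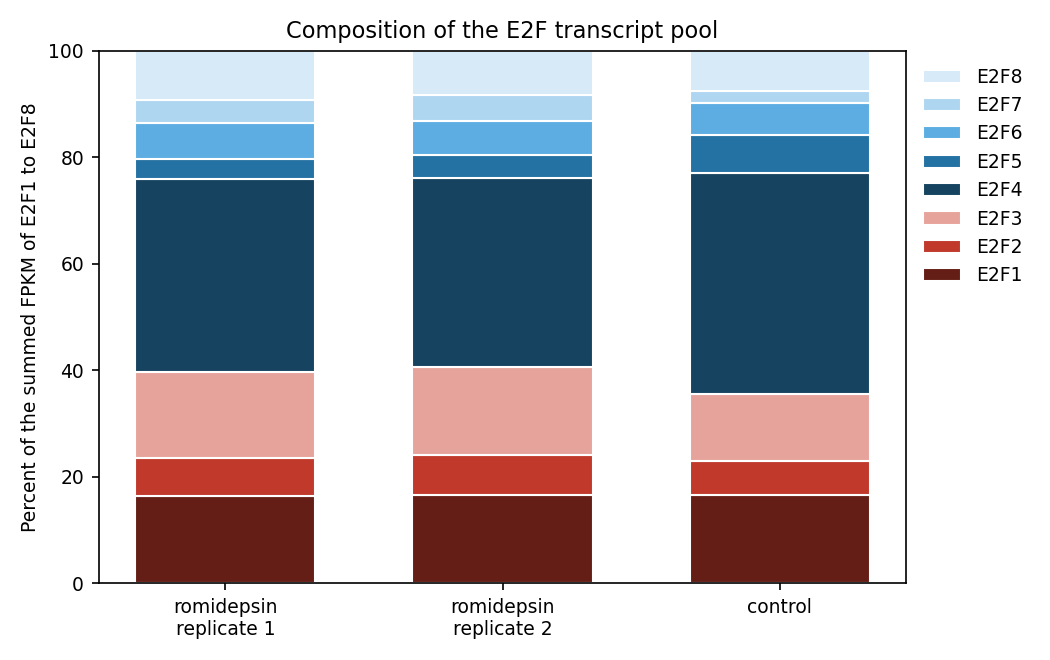
Share of each gene in the summed FPKM of E2F1 to E2F8, in percent, for the romidepsin libraries and the control, with activators in red and repressors in blue. The red part takes 39.6% and 40.6% after romidepsin and 35.5% in the control, with the dark blue block of E2F4 narrower after romidepsin.

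The genes closest to E2F5, the member with the largest difference, by distance in log2(FPKM + 1) over the 3 libraries were SETD6 (distance 0.11), GRAMD1B (0.12) and NIPAL2 (0.14). SETD6, for example, was at 3.66 and 3.67 FPKM after romidepsin and 9.07 FPKM in the control.

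Of the 3 pocket proteins, the direct inhibitors of E2F, 1 rose and 2 fell, beside 34.7% and 41.8% of all tested genes. RB1, which restrains the activators, rose to 21.0 and 21.1 FPKM after romidepsin against 16.7 FPKM in the control (0.32 ± 0.05 SE, adjusted p = 0.000542). RBL1 fell to 13.0 and 12.6 FPKM against 14.8 FPKM (adjusted p = 0.012) and RBL2 to 25.3 and 24.9 FPKM against 28.2 FPKM (adjusted p = 0.0117). Equal-sum scaling turned both signs without a call, to 0.03 for RBL1 (adjusted p = 0.656) and 0.07 for RBL2 (adjusted p = 0.19), whereas RB1 was still higher (0.55). The RBL1 call also ended with no filter (adjusted p = 0.056) and that of RBL2 with quantile normalization (adjusted p = 0.409).

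Of 8 genes of the MuvB core and its MYB and FOXM1 partners, 4 rose and 3 fell (median 0.10, against -0.05 over all genes, of which 34.7% rose and 41.8% fell). MYBL1, a MYB-family factor, rose to 7.80 and 7.89 FPKM against 1.6 FPKM in the control (1.76 ± 0.07 SE, adjusted p = 1.12e-06). Its relative MYBL2, an E2F target that joins MuvB to activate late cell cycle genes, fell to 62.1 and 61.1 FPKM against 83.8 FPKM (-0.44, adjusted p = 2.83e-05). In the core, LIN9 fell by 0.58 and the histone-binding RBBP4 by 0.26, while LIN54, the DNA-binding subunit, rose by 0.38, LIN52 by 0.35 and LIN37 by 0.24. FOXM1 was at 22.2 and 21.8 FPKM after romidepsin and 22.8 FPKM in the control (adjusted p = 0.372). The RBBP4 fall was not called with equal-sum scaling (-0.02, adjusted p = 0.608) or quantile normalization (adjusted p = 0.114), and the LIN37 rise missed the threshold after quantile normalization (adjusted p = 0.557) and when no filter was used (adjusted p = 0.103).

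Among 9 polycomb partners of E2F6, 4 fell and 2 rose (median 0.00), beside 41.8% and 34.7% of all tested genes. Equal-sum scaling gave 4 lower and 4 higher, where 26.1% of all tested genes were lower and 48.9% higher. L3MBTL2, a chromatin reader subunit, was at 8.08 and 8.0 FPKM after romidepsin and 16.6 FPKM in the control (-0.96 ± 0.06 SE, adjusted p = 5.22e-06), PCGF6, a polycomb RING finger protein, at 5.59 and 5.33 FPKM against 10.5 FPKM (-0.83, adjusted p = 2.46e-05), and MGA, the DNA-binding partner of MAX, at 9.18 and 9.87 FPKM against 14.9 FPKM (-0.60, adjusted p = 9.56e-05). CBX3, a heterochromatin protein, fell by 0.46. RYBP rose to 18.1 and 18.5 FPKM against 9.83 FPKM (0.83, adjusted p = 6.21e-06) and MAX by 0.25. RING1, RNF2 and YAF2, at differences of 0.02, 0.14 and 0.00, were not called as deposited, and RING1 was summed over several rows.

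Of the cofactor and turnover genes, 6 of 8 were matched by symbol alone, with 3 higher and 3 lower, beside 34.7% and 41.8% of all tested genes. SKP2, a ubiquitin ligase subunit that is an E2F target and can target E2F1, fell to 24.1 and 22.8 FPKM against 34.8 FPKM in the control (-0.55, adjusted p = 4.09e-05). CCNF (cyclin F) and FZR1, substrate receptors of ubiquitin ligases that act on cell cycle proteins, rose by 0.34 and 0.43. HDAC1, a target of the drug and a partner of RB1, rose by 0.21, a call that ended with no filter (adjusted p = 0.0549). The acetyltransferase genes CREBBP and KAT2B fell by 0.20 and 0.29, which equal-sum scaling did not call (0.02 with adjusted p = 0.831 and -0.11 with adjusted p = 0.301) and neither did the test with no filter (adjusted p = 0.0728 and 0.0623). EP300 and TRRAP were read only in rows joined with other genes, where their differences were -0.13 (adjusted p = 0.0868) and -0.43 (adjusted p = 0.000467).

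Upstream of RB1, 13 of 15 kinase, cyclin and inhibitor genes were tested. CDKN2B and CCND1 were under 1 FPKM in the control and entered the test only through the romidepsin libraries; of the other 11 genes, 5 rose and 6 fell (median -0.23, against -0.05 over all genes, of which 34.7% rose and 41.8% fell). CDK4 and CDK6, which phosphorylate RB1, fell to 64.2 and 64.6 FPKM against 124 FPKM in the control (-0.94, adjusted p = 7.65e-07) and to 7.57 and 7.10 FPKM against 20.4 FPKM (-1.36, adjusted p = 1.65e-06). The third large fall was that of CDKN2C, an inhibitor of CDK4 and CDK6, by 0.57. The inhibitors CDKN1A and CDKN2D rose by 4.61 and 1.53. CDKN2B was at 5.52 and 5.72 FPKM after romidepsin and 0.34 FPKM in the control, and CCND1 at 1.15 and 1.30 FPKM against 0.36 FPKM. CCND2 and CDKN1C were not tested.

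Targets of E2F were read in lists by cell cycle phase. Of 32 genes of the G1/S transition, 21 fell and 6 rose, with a median of -0.20 against -0.05 over all genes, of which 41.8% fell and 34.7% rose. Many genes of this list stand at high levels, MCM7 and TYMS among them. The median over all tested genes was -0.29 at or above 50 FPKM and -0.14 from 20 to 50 FPKM. The part of level in the falls of this list was not tested. UNG, a uracil glycosylase gene of DNA repair, fell by 1.5, the helicase subunit gene MCM7 by 1.03 and the thymidylate synthase gene TYMS to 155 and 149 FPKM against 263 FPKM in the control (-0.79, adjusted p = 1.62e-06). In the other direction, the nucleotide synthesis genes TK1 and RRM2 rose: TK1 was at 131 and 130 FPKM against 83.4 FPKM (0.64, adjusted p = 3.22e-06), and RRM2 was higher by 0.32. Equal-sum scaling made the list even, with 12 lower and 13 higher (median 0.03, against 0.16 over all genes, of which 26.1% were lower and 48.9% higher), so the majority of falls does not hold on that scale.

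Of the 25 tested G2/M genes of MuvB and FOXM1, 13 rose and 6 fell, where 34.7% of all tested genes rose and 41.8% fell (median 0.13, against -0.05). NEK2, a centrosome kinase, rose to 48.9 and 49.4 FPKM against 30.2 FPKM in the control (0.68, adjusted p = 4.69e-06), and TOP2A and NUSAP1 by 0.59 and 0.42. CCNA2, the S and G2 cyclin, fell by 0.54, PLK1 by 0.35 and UBE2C by 0.27, the last of which was not called with equal-sum scaling (-0.03, adjusted p = 0.462) or quantile normalization (adjusted p = 0.587). Equal-sum scaling gave 19 higher and 2 lower, where 48.9% of all tested genes were higher and 26.1% lower. The difference between the G1/S and G2/M lists was not tested.

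Of the 8 tested genes through which E2F1 is known to promote apoptosis, 6 rose and 1 fell, beside 34.7% and 41.8% of all tested genes (median 0.36, against -0.05). APAF1, which forms the apoptosome, rose to 38.4 and 37.8 FPKM against 16.4 FPKM in the control (1.17 ± 0.04 SE, adjusted p = 7.32e-07), while E2F1 itself fell. BBC3 was the one that fell, by 0.63, and TP73 stayed under 1 FPKM. DIABLO, summed over several rows, was at 35.7 and 32.4 FPKM after romidepsin and 32.4 FPKM in the control (adjusted p = 0.327).

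**Figure D5:**
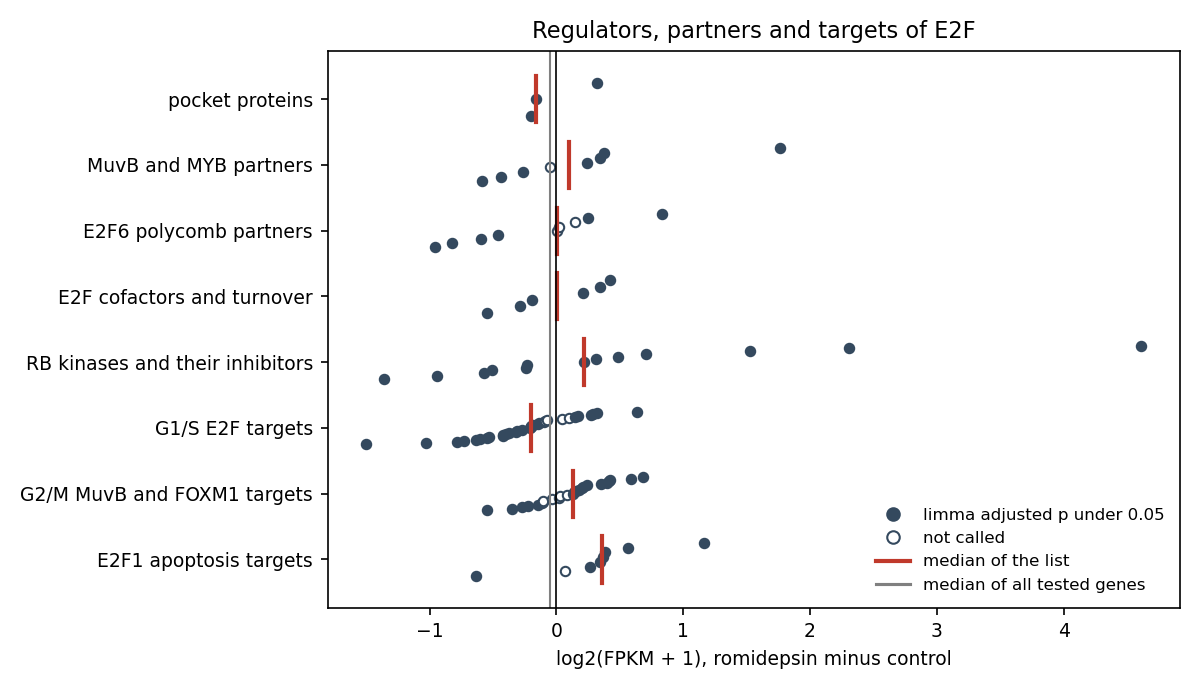
Log2(FPKM + 1) difference, romidepsin minus control, of each tested gene in the 8 lists around E2F, filled where the limma adjusted p was under 0.05, with red bars at list medians and the grey line at the median of all genes (-0.05). G1/S targets spread below 0 with a median of -0.20, G2/M and apoptosis targets lie higher with medians of 0.13 and 0.36, and CDKN1A stands at 4.61. The bar of the RB kinase list includes CDKN2B and CCND1.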

How the data were processed

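RNA-seq of 1 control and 2 romidepsin libraries was analysed. The authors deposited FPKM per gene name, per the file headers. The submitters' processing notes name TopHat, Cufflinks and Cuffdiff with the build hg19. For versions, settings and annotation, the sources used here give nothing. The 1770 rows without a name (21.1% to 22.3% of the summed FPKM) and the 27 rows named by a number were left out, and rows of 1 symbol were summed. No symbol above 0 had the same value in both romidepsin libraries.

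Genes with at least 1 FPKM in 1 library were compared on log2(FPKM + 1) with limma 3.58.1 in R 4.3.3 (eBayes with a mean-variance trend, Benjamini-Hochberg over 11708 genes, threshold 0.05). The romidepsin pair supplied 1 residual degree of freedom, to which eBayes added 6.06 prior ones. The single control is thereby taken to vary as that pair does. Across tested genes the pair differed with an SD of 0.14, and each romidepsin library differed from the control with SDs of 0.68 and 0.69. Depth was estimated from the steps of low FPKM values in genes with a single transcript of at least 1000 bases in GENCODE annotation, and is approximate. Joined names were kept apart. Promoter search and plots used Python 3.11.15 and matplotlib 3.10.9.

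The members and lists were chosen with earlier results of these data known. All members were named, as were all genes of the pocket, MuvB, polycomb and cofactor lists; of the other lists, the 3 largest called changes each way, and up to 3 called genes that went against the majority. Some genes that this rule takes in are not reported here. Alternatives were other pseudocounts, filters, scalings, fits, joined rows and leaving out each romidepsin library.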

Additional observations from a re-analysis of the deposited data

How the results depend on the processing

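E2F1, E2F4, E2F5, TFDP1 and TFDP2 kept their direction and call under all 9 tested alternatives, with log2 differences from -0.46 to -0.21, -0.67 to -0.42, -1.24 to -0.87, -0.58 to -0.33 and -0.58 to -0.26. Scaling to the same sum turned the sign of E2F3 (0.15, then called higher) and E2F8 (0.0153, not called). It also gave 2 members higher and 5 lower (1 and 8 as deposited), 3061 of all genes lower (4896), 172 at least 2-fold lower (361), and class medians of -0.0213 for activators (-0.23) and -0.0938 for repressors (-0.30). On that scale 4 polycomb partners were higher (2), 13 G1/S targets higher and 12 lower (6 and 21), 2 G2/M targets lower (6), 1 cofactor lower (3) and 0 pocket proteins lower (2). The number of members higher was 0, not 1, with no filter, with a mean of at least 5 FPKM, which removed E2F7, and with quantile normalization. Lower counts were 1 pocket protein and 1 cofactor with no filter, 1 pocket protein and 2 G2/M targets with quantile normalization, and 0 apoptosis targets (1 as deposited) with a mean of at least 5 FPKM. The repressor median was -0.34 and -0.33 with pseudocounts of 0.1 and 0.5 FPKM, -0.48 with a mean of at least 5 FPKM and -0.37 with quantile normalization. With a pseudocount of 0.1 FPKM 1308 genes were at least 2-fold higher (870) and 543 lower, and with a mean of at least 5 FPKM 463 were higher. E2F5 made 1 member at least 2-fold lower, where none was as deposited, with pseudocounts of 0.1 and 0.5 FPKM and with quantile normalization. The cause of these shifts was not tested.

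Leaving out a romidepsin library left no residual degree of freedom, so it gave values with no test. Such a value departs from the mean of the pair by a fixed part of the gap within it and says nothing about stability. The number of members at least 2-fold lower ranged from 0 to 1, with E2F5 counted without romidepsin replicate 2. No paired analysis was possible because there is only 1 control library, so the groups share fewer than 2 replicate numbers. With the shortest annotated transcripts, depth limits E2F5 and TFDP2 most, where counting alone gives an SE of 0.13 on the log2(FPKM + 1) scale. For TFDP2, the longest transcript would give far more fragments.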
